A study of Mus musculus with 4 samples.

Results

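The 10 genes described here encode the cyclins, kinases and inhibitors that govern passage through G1, together with the retinoblastoma protein. They were chosen by symbol from the 23946 symbols listed for each library, and all 10 were listed in all 4 libraries. They are the D-type cyclins *Ccnd1*, *Ccnd2*, and *Ccnd3*, the kinases *Cdk4* and *Cdk6*, *Rb1*, the Cip/Kip inhibitors *Cdkn1a* and *Cdkn1b*, and the Ink4 genes *Cdkn2a* and *Cdkn2c*. RNA came from CD51+;CD200+ skeletal stem/progenitor cells sorted by FACS from wild-type, untreated CD-1 mice at postnatal day 3. The tissues were 3 cranial sutures, the posterior frontal (PF), the sagittal (SAG), and the coronal (COR), and, as the control, the growth plate of the tibia (GP), with 1 library for each. The PF suture fuses early in life, whereas SAG and COR stay patent. Each library pooled cells of many mice, so the spread between animals is not measured, no p-value is given, and a difference between tissues cannot be told apart from a difference between libraries.

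A cell leaves G1 when mitogens raise D-type cyclins, which bind CDK4 or CDK6 and phosphorylate RB, the protein that holds E2F transcription factors in check. Ink4 proteins bind CDK4 and CDK6 directly, whereas Cip/Kip proteins bind cyclin and kinase together and restrain CDK2 in particular. In growing skeleton, D-type cyclins are known for their part in expanding progenitors and chondrocytes, and Cip/Kip inhibitors for their part in the exit from the cycle that precedes differentiation.

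In PF-CD51+;CD200+ cells, *Cdkn1a* was the lowest of the 4 libraries by more than 3-fold against each of the others, and *Ccnd3* was the highest. *Ccnd1* was the lowest in SAG-CD51+;CD200+ cells and *Cdk6* was the highest in GP-CD51+;CD200+ cells. *Cdk4* and *Cdkn1b* were nearly level across the libraries as deposited, and *Cdkn2a* was listed under 1 FPKM in all of them. Values are FPKM, fragments per kilobase of transcript scaled to library size. They allow an approximate comparison between genes and between libraries, within the limits of scaling and GC content given below. Ratios between libraries are differences in log2(FPKM + 1), for genes that reached 1 FPKM in either library, and those of 3-fold or more, 1.58 on that scale, were counted without a test. Of the 10 genes, 9 reached 1 FPKM in at least 1 library and 8 in every library, and *Cdkn2a* reached it in none.

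**Figure D1:**
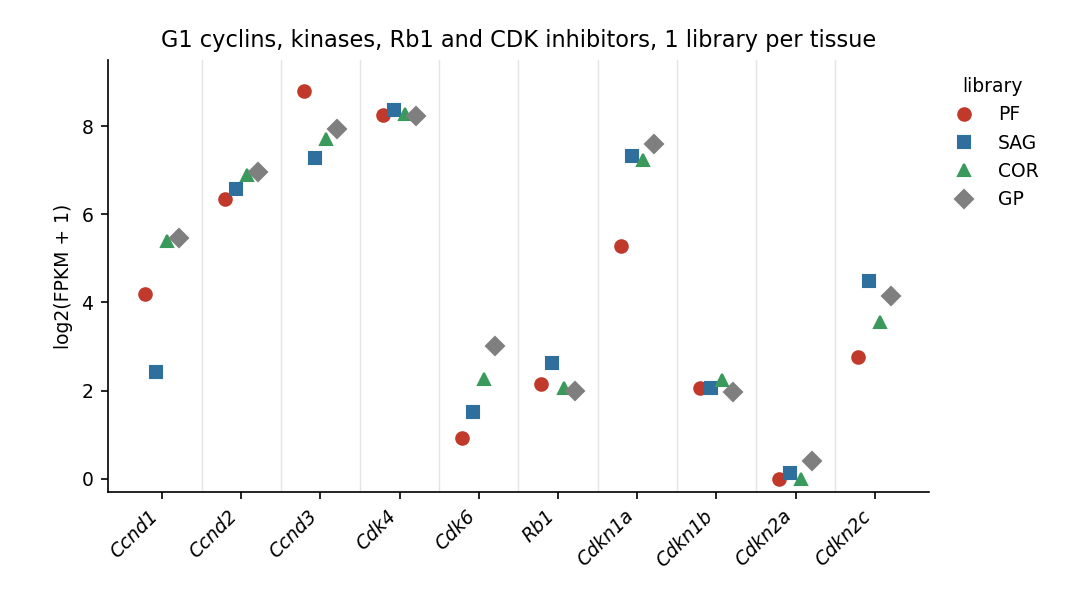
Level of each of the 10 genes as log2(FPKM + 1) on the vertical axis, with 1 point per library (PF, SAG, COR, and GP) and no error bars, since each tissue has 1 library. *Cdkn1a* in PF, at 37.7 FPKM, lies far under the other 3 points of that gene, and *Ccnd1* in SAG, at 4.37 FPKM, lies lowest for its gene.

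Between 11402 and 12263 genes reached 1 FPKM in a library, and total FPKM ran from 447174 to 550958. The files give no fragment counts. Low values of FPKM times transcript length in kilobases gathered near 0.0584 in PF against 0.0260, 0.0294, and 0.0307 in SAG, COR, and GP. Taken as the worth of 1 fragment, these values put the PF library at 44.5% of the depth of SAG, with COR at 88.4% and GP at 84.7%. Whether the PF value stands for 1 fragment or for more was not tested, so the depth of PF is uncertain. Genes listed at 0 numbered 7516 in PF against 6768, 8287, and 7368 in SAG, COR, and GP. The fragment numbers given below come from the same estimate and the longest coding transcript of each gene, and are approximate. Ratios of PF to the other libraries moved with the GC content of transcripts, with Spearman's rho across genes of 0.39 against SAG, 0.31 against COR, and 0.39 against GP over 8566, 8221, and 8272 genes, so values after a correction for GC content are given where they matter. *Itgav* and *Cd200*, the genes of the sorted antigens, were between 6.20 and 62.6 FPKM in all libraries. The 5 genes of antigens selected against summed to 9.63 FPKM in PF against 4.16, 5.31, and 2.60 in SAG, COR, and GP. The 7 chondrocyte markers summed to 2851 FPKM in SAG and 2859 in GP, against 115 in PF and 103 in COR, with none at 0. The 5 choroid plexus markers summed to 5167 FPKM in SAG, nearly all of it *Ttr* at 5103, against 493 in PF, 196 in COR, and 51.2 in GP, also with none at 0. Of these markers, *Aqp1* went the other way, lowest in SAG at 11.9 FPKM against 24.2, 53.8, and 41.1 in PF, COR, and GP. The 5 osteoblast lineage markers summed to 1062 FPKM in PF against 248, 3240, and 1244 in SAG, COR, and GP. Markers of leukocytes, erythroid cells, endothelium, neurons, and muscle summed to between 0.481 and 15.7 FPKM per list and library, unevenly between libraries. The erythroid sum was 15.6 FPKM in PF against 1.93, 1.81, and 1.85 in SAG, COR, and GP. The leukocyte sum was 12.2 FPKM in PF against 3.23, 4.09, and 9.73. Muscle markers also summed highest in PF, at 12.7 FPKM. The neuron and endothelial sums were highest in SAG, at 13.4 and 15.7 FPKM, the latter mostly *Kdr* at 14.9. *Tyrobp* was listed at 0 in every library, and *Snap25*, *Elavl3*, and *Myog* in 3 of the 4. The part of other cells in the results below was not tested, and fewer cells of a type and less RNA per cell cannot be told apart in bulk samples.

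*Ccnd3* (mm9 chromosome 17, 47642000 to 47736632, plus strand) encodes cyclin D3, the D-type cyclin best known from lymphoid and muscle cells. The *Ccnd3* level was 446 FPKM in PF against 155, 208, and 242 in SAG, COR, and GP. PF was thus the highest and SAG the lowest, with COR and GP in between. The log2 ratio of PF to SAG was 1.52, a fold of 2.88 that lay just under the 3-fold threshold, and those to COR and GP were 1.10 and 0.88. *Ccnd3* transcripts hold 58.4% GC, above the median of 50.3% for coding genes at 1 FPKM or more in any library, and after the GC correction its log2 ratios were 0.998, 0.78, and 0.47. PF was still the highest after the correction, by a smaller margin. *Bysl*, on the opposite strand, shares 353 exon bases with *Ccnd3* and was at 7.16 to 12.4 FPKM, and the counting is not stated to have used strand.

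*Ccnd1* (mm9 chromosome 7, 152115836 to 152125774, minus strand) encodes cyclin D1, induced by mitogens and widely used as a target gene of canonical Wnt signaling. The *Ccnd1* level was 17.3 FPKM in PF against 4.37, 41.4, and 43.3 in SAG, COR, and GP. COR and GP were nearly equal, PF stood below them, and SAG was lowest, at about 630 fragments against 5263 in COR. The log2 ratio was -2.98 for SAG vs COR and -3.04 for SAG vs GP, the widest of any of the 10 genes, and that of PF to SAG was 1.77. The ratios of PF to COR and GP were -1.21 and -1.28, short of 3-fold. On the FPKM + 1 scale, *Ccnd1* was 8.24-fold lower in SAG than in GP. The choroid plexus sum, nearly all of it *Ttr*, was highest in SAG, where *Ccnd1* was lowest, and the part of such RNA in this was not tested. *Ccnd1* transcripts hold 50.9% GC, and after the GC correction the log2 ratios of SAG to COR and GP were -2.97 and -3.04. The PF vs SAG ratio was 1.503, under 3-fold, when the libraries were scaled to the same total FPKM, a scaling that by itself moved the median ratio of all genes by -0.26. *Oraov1*, on the opposite strand, shares 818 exon bases with *Ccnd1* and was at 8.88 to 10.9 FPKM.

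*Ccnd2* (mm9 chromosome 6, 127075797 to 127101066, minus strand) encodes cyclin D2. It reached 80.7 FPKM in PF against 94.7, 117, and 123 in SAG, COR, and GP. The libraries differed little, with a largest log2 ratio of -0.60 for PF vs GP. In each library *Ccnd3* had the most transcript of the D-type cyclins per length and *Ccnd1* the least. *Ccnd3* made up 82.0% of the summed FPKM of the 3 genes in PF against 60.9%, 56.8%, and 59.3% in SAG, COR, and GP. *Ccnd1* made up 3.18% in PF against 1.72%, 11.3%, and 10.6% in SAG, COR, and GP. The sum itself was 544 FPKM in PF against 254, 366, and 408 in SAG, COR, and GP. As deposited, SAG therefore had the lowest total and the lowest share of *Ccnd1*, and PF the highest total and the highest share of *Ccnd3*. The sums and shares were not corrected for GC content. For *Ccnd3*, that correction took the log2 ratio of PF to GP from 0.88 to 0.47.

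**Figure D2:**
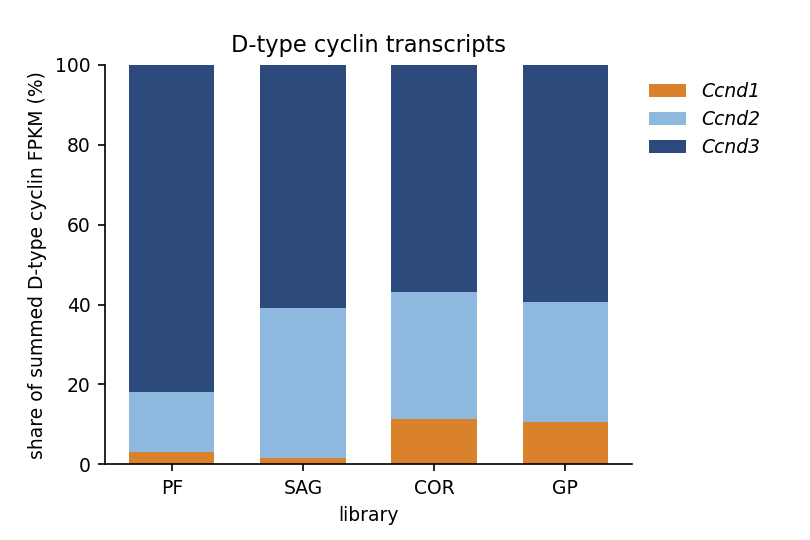
Share of *Ccnd1*, *Ccnd2*, and *Ccnd3* in their summed FPKM (vertical axis, percent) in each of the 4 libraries. *Ccnd3* fills 82.0% of the bar in PF and 56.8% to 60.9% in the other libraries, and *Ccnd1* is thinnest in SAG at 1.72%.

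*Cdk4* (mm9 chromosome 10, 126500590 to 126504976, plus strand) and *Cdk6* (chromosome 5, 3343893 to 3523218, plus strand) encode the kinases that D-type cyclins activate. *Cdk4* was listed at 305 FPKM in PF against 329, 309, and 301 in SAG, COR, and GP. As deposited, it varied the least of the genes that reached 1 FPKM, with a log2 range of 0.13. With the libraries quantile-normalized, its log2 ratio of PF to SAG was -0.57. *Tspan31* shares 604 exon bases with *Cdk4* on the opposite strand and was at 311 FPKM in PF against 170, 199, and 181 in SAG, COR, and GP, so reads of the pair may have been shared and the level of *Cdk4* is uncertain to that extent. *Cdk6* was far lower, at 0.885 FPKM in PF against 1.84, 3.83, and 7.04 in SAG, COR, and GP. These values stand for about 57 fragments in PF and 858 in GP. *Cdk6* was thus lowest in PF, followed by SAG, COR, and GP in that order, with a log2 ratio of -2.09 for PF vs GP and -1.50 for SAG vs GP. Since PF was under 1 FPKM, the PF vs GP ratio of *Cdk6* is the only 3-fold ratio of these genes that was lost when 1 FPKM was required in both libraries. *Cdk4* exceeded *Cdk6* in FPKM 344-fold in PF against 179-fold, 80.5-fold, and 42.7-fold in SAG, COR, and GP, and the difference in this ratio came almost wholly from *Cdk6*.

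*Rb1* (mm9 chromosome 14, 73583480 to 73725629, minus strand) encodes the retinoblastoma protein, the substrate of these kinases. *Rb1* was low, at 3.45 FPKM in PF against 5.21, 3.16, and 2.98 in SAG, COR, and GP. SAG was highest, and the widest log2 ratio was 0.64 for SAG vs GP. *Rb1* is AT-rich, with 41.2% GC, and its log2 ratio of -0.48 for PF vs SAG became 0.11 after the GC correction, so the order of PF and SAG is not settled. *Rcbtb2* and *Lpar6*, on the opposite strand, share 488 and 408 exon bases with it and were listed above it in every library.

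*Cdkn1a* (mm9 chromosome 17, 29227924 to 29237667, plus strand) encodes p21, a Cip/Kip inhibitor that p53 and differentiation signals can induce. The *Cdkn1a* level was 37.7 FPKM in PF against 160, 150, and 193 in SAG, COR, and GP. PF stood alone below 3 libraries that lay close together, at about 1235 fragments against 9755 to 12001. The log2 ratios of PF to SAG, COR, and GP were -2.06, -1.96, and -2.32, and no ratio among the other libraries exceeded 0.36 in size. *Cdkn1a* was the only one of the 10 genes past 3-fold in all 3 comparisons with PF, and it stayed past 3-fold in each of them under every setting tried. At 54.6% GC it runs against the GC trend of the PF library, and the corrected log2 ratios were larger in size, at -2.35, -2.15, and -2.57. *Cdkn1b* (chromosome 6, 134870419 to 134875531, plus strand), which encodes p27, was listed at 3.14 FPKM in PF against 3.15, 3.75, and 2.94 in SAG, COR, and GP. Its libraries differed by at most 0.27 on the log2 scale as deposited, and its GC-corrected ratios of PF to SAG and GP were 0.51 and 0.52. *Cdkn1a* thus exceeded *Cdkn1b* 12.0-fold in PF and 40.04-fold to 65.6-fold in the other libraries.

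*Cdkn2c* (mm9 chromosome 4, 109333481 to 109339794, minus strand) encodes p18, an Ink4 inhibitor. The *Cdkn2c* level was 5.79 FPKM in PF against 21.6, 10.7, and 16.6 in SAG, COR, and GP. PF was lowest and SAG highest, and the log2 ratio of PF was -1.73 to SAG, -1.38 to GP, and -0.79 to COR. Only the first of these passed 3-fold, and after the GC correction PF vs GP did as well, at -1.77. *Cdkn2a* (chromosome 4, 88920377 to 88940557, minus strand) encodes p16 and, from another first exon and reading frame, p19Arf, and values by symbol do not separate the 2 products. It was listed at 0 in PF and COR, 0.1002 FPKM in SAG, and 0.319 in GP, the latter 2 standing for about 4 and 10 fragments. An exact 0 in these files can be a failed estimate, since *Sparc* and *Col1a1*, abundant in the other libraries, are also listed at 0 in COR. At this depth no difference between libraries can be read from it.

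The sequences that follow lie directly upstream of start sites of *Cdkn1a* and *Cdkn2c*, which were lowest in PF, of *Ccnd3*, which was highest there, and of *Cdkn2a*, which did not reach 1 FPKM. They are from the RefSeq promoter table (GRCm38.p6), which matched 7 of the 10 genes. The table lists 2 start sites for each of these genes, which start site was used was not measured, and the window with more GC is shown, 250 bases long, 5′ to 3′ on the strand of the gene. Their positions are chr17:29093519-29093768 for *Cdkn1a* (plus), chr4:109666757-109667006 for *Cdkn2c* (minus), chr17:47593217-47593466 for *Ccnd3* (plus), and chr4:89294620-89294869 for *Cdkn2a* (minus), the last upstream of the exon from which p19Arf begins. Capitals mark GC boxes (GGGCGG) and E2F sites (TTTCCCGC, TTTGGCGC, TTTCGCGC, or TTTGCCGC) on either strand.
Cdkn1a: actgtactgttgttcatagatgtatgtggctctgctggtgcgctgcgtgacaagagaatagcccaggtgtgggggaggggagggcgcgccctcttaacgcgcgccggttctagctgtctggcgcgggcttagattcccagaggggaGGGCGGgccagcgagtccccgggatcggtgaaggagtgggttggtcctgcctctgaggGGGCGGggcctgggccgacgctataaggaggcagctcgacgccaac
Cdkn2c: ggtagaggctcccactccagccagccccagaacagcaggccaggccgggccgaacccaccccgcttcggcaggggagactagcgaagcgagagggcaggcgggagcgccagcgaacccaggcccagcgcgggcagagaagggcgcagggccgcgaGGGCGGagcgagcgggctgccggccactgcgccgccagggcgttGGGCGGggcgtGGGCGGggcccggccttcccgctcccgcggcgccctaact
Ccnd3: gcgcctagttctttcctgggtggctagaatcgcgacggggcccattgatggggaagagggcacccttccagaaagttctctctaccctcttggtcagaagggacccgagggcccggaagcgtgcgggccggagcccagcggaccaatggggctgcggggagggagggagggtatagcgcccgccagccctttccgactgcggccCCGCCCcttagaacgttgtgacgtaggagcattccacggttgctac
Cdkn2a: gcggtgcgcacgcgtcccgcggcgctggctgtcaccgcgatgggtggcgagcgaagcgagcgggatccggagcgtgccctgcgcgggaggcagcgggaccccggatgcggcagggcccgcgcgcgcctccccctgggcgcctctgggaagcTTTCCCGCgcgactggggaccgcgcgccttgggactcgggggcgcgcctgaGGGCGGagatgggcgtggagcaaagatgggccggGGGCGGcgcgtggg

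The *Cdkn1a* window held 2 GC boxes, that of *Cdkn2c* 3, that of *Ccnd3* 1, and that of *Cdkn2a* 2. The other windows of *Cdkn1a*, *Cdkn2c*, and *Cdkn2a* held 0, and that of *Ccnd3* held 2. Over all 32851 windows of this length, 32.7% held a GC box, a share that cannot be set beside windows shown for their GC content. The *Cdkn2a* window also held an E2F site that begins 99 bases before the start site. That motif was found in 1.86% of all windows, a share that likewise cannot be set beside a window shown for its GC content. No other window of the 7 genes matched held this motif. A cyclic AMP response element (TGACGTCA), found in 1.55% of windows, was in none of the windows of the 7 genes matched. Among the same windows, a TCF/LEF site (ATCAAAG), found in 3.21% of all windows, was in that of *Cdk4* alone. *Ccnd1*, *Ccnd2*, and *Rb1* had no window and were not searched. A match describes letters and not a bound site.

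Counted over the 9 genes that could be compared, 3 were apart by 3-fold between PF and SAG, namely *Ccnd1*, higher in PF, and *Cdkn1a* and *Cdkn2c*, lower in PF. Over all 13490 genes compared, 15.7% were apart, 6.64% on the higher side in PF and 9.04% on the lower. For PF and COR it was *Cdkn1a*, against 11.7% of all genes, 6.81% on the higher and 4.87% on the lower side. For PF and GP it was *Cdk6* and *Cdkn1a*, both lower in PF, against 12.0% of all genes, 5.72% higher and 6.24% lower. For SAG vs COR and SAG vs GP it was *Ccnd1* in each case, lower in SAG, against 9.25% of all genes (6.15% higher and 3.11% lower in SAG) and 8.66% (4.80% higher and 3.86% lower). Between COR and GP it was none of the 9, against 4.40% of all genes, 1.20% higher and 3.20% lower in COR. With 9 genes, such counts cannot be read as above or below these shares. In at least 1 pair, 4 of the 9 genes were apart by 3-fold, compared with 24.7% of the 13998 genes at 1 FPKM or more, and the median log2 range over the 4 libraries was 1.52 for the 9 genes and 1.01 for all. The median log2 ratios of the 9 genes in PF to SAG, COR, and GP were -0.23, -0.53, and -0.60, where that of all genes was 0.03, 0.05, and 0.03. After the GC correction they were -0.05, -0.41, and -0.46, and the number of the 9 genes lower in PF than in SAG went from 7 to 5. These comparisons share the PF library, and *Ccnd3* went the other way in each.

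**Figure D3:**
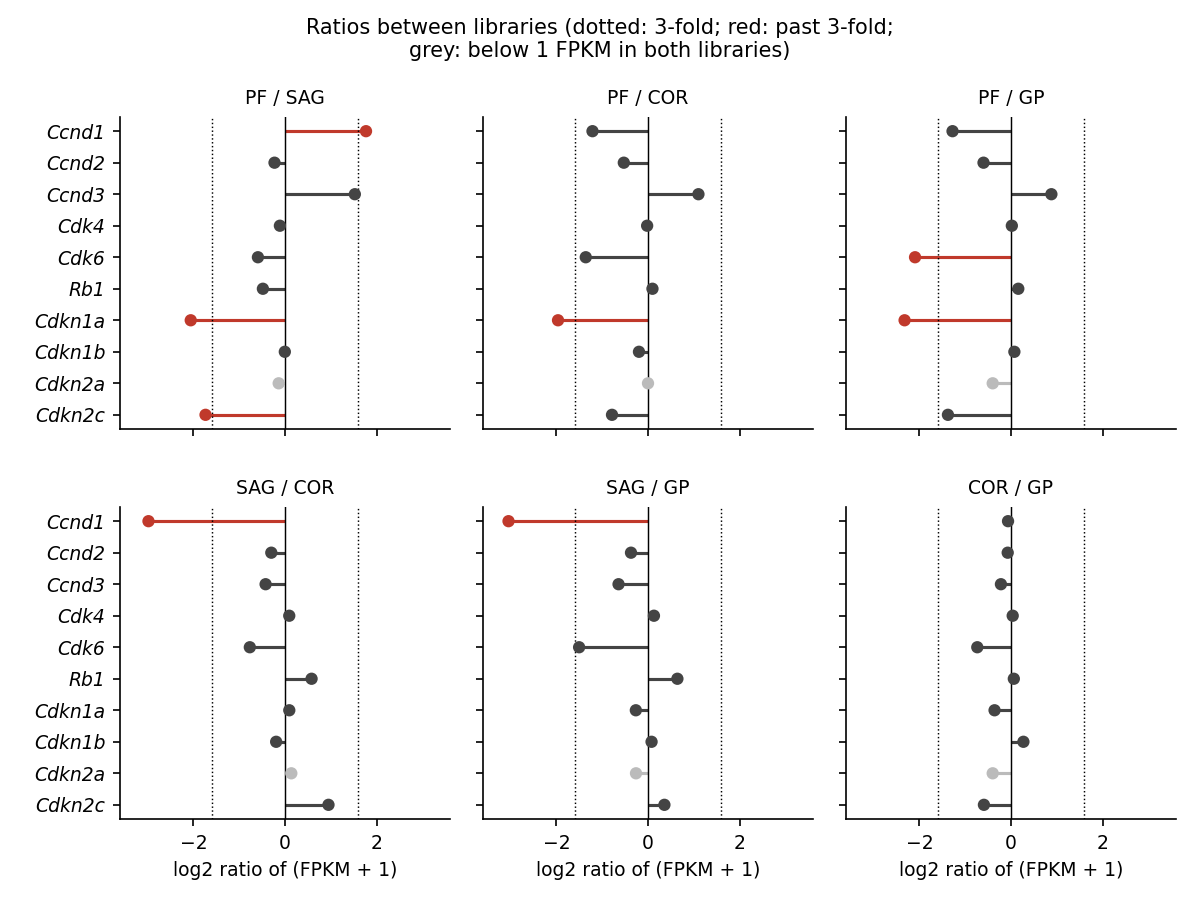
Log2 ratio of FPKM + 1 (horizontal axis) for each of the 10 genes in the 6 pairs of libraries, with dotted lines at 3-fold, red for ratios past it, and light grey for *Cdkn2a*, under 1 FPKM in every library. *Cdkn1a* passes 3-fold in the 3 panels with PF, *Ccnd1* in the 3 panels with SAG, and no gene does in COR vs GP.

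*Cdkn1c*, the remaining Cip/Kip gene, encodes p57, an imprinted inhibitor expressed in differentiating chondrocytes. It was listed at 3198 FPKM in PF against 961, 945, and 1742 in SAG, COR, and GP, far above all 10 genes. In PF it exceeded *Cdkn1a* 84.7-fold, against 5.997-fold, 6.30-fold, and 9.04-fold in SAG, COR, and GP. The log2 ratios of *Cdkn1c* in PF to SAG, COR, and GP were 1.73, 1.76, and 0.88. After the GC correction they were 1.16, 1.39, and 0.43, each under 3-fold. As deposited, Cip/Kip genes thus did not share a direction, since *Cdkn1a* was lowest in PF, *Cdkn1c* highest, and *Cdkn1b* nearly level. After the GC correction, the log2 ratio of PF to GP was 0.52 for *Cdkn1b*, above that of *Cdkn1c*. *Cdkn2b*, the Ink4 gene next to *Cdkn2a*, was at 3.50 FPKM in PF against 13.1, 13.4, and 12.8 in SAG, COR, and GP, past 3-fold in each comparison with PF, with log2 ratios of -1.65, -1.67, and -1.62. *Cdkn2d*, another Ink4 gene, was at 3.40 FPKM in PF against 5.85, 5.57, and 5.05 in SAG, COR, and GP. All 3 Ink4 genes above 1 FPKM, *Cdkn2b*, *Cdkn2c*, and *Cdkn2d*, were lowest in PF, as were 35.8% of all expressed genes, and about 84, 245, and 74 fragments stood behind their PF values.

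Of the other kinases and cyclins at the G1/S transition, *Ccna2* was the only 1 of 8 past 3-fold in any pair, against 24.7% of all expressed genes. *Ccna2*, the cyclin A gene whose product acts with CDK2 in S phase, was at 7.54 FPKM in PF against 27.9, 33.0, and 24.6 in SAG, COR, and GP. Its log2 ratios of PF to SAG and COR were -1.76 and -1.99, and -1.40, under 3-fold, and -1.75 after the GC correction. *Cdk2*, the cyclin E genes, and the subunits of the CDK-activating kinase stayed within 3-fold. Of 12 pocket protein and E2F genes, 11 reached 1 FPKM and none passed 3-fold, and neither did any of the 10 genes of p27 and cyclin turnover, where 24.7% of all expressed genes passed in some pair. With so few genes, these counts cannot be read as below that share.

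Of 16 genes of cycling cells, 15 were lowest in PF, compared with 35.8% of all expressed genes. All 16 were read in the same 1 library per tissue and are not separate observations. Their list was chosen with earlier results of these data known, so the count is a description and no test. Their median log2 ratios of PF to SAG, COR, and GP were -1.02, -0.83, and -1.05, and -0.98, -0.80, and -0.86 after the GC correction. *Ccnb1*, the cyclin of entry into mitosis, was at 2.14 FPKM in PF against 24.9, 21.97, and 15.2 in SAG, COR, and GP, past 3-fold in each comparison with PF. *Cdk1*, its kinase partner, was at 5.50 FPKM in PF against 21.8, 11.7, and 22.6 in SAG, COR, and GP. *Aurkb*, a mitotic kinase, was at 3.68 FPKM in PF and at 8.09 to 16.5 elsewhere, and *Rrm2*, a subunit of ribonucleotide reductase, at 16.7 FPKM in PF and 31.0 to 61.1 elsewhere. The exception was *Mcm5*, a subunit of the replicative helicase, highest in PF at 30.1 FPKM against 14.9 to 18.1. In PF-CD51+;CD200+ cells the inhibitor *Cdkn1a* and most genes of cycling cells were thus both at their lowest, while *Cdkn1c* and *Ccnd3* were at their highest. By the uncertain estimate from low values, PF was also the shallowest library, and the part of depth here was not tested.

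Among the 10 upstream regulators, 2 were past 3-fold in some pair, a share near the 24.7% of all expressed genes, and 1 of them reached 5 FPKM. *Tbx2*, a T-box repressor known to act on *Cdkn1a* and *Cdkn2a*, was at 13.5 FPKM in PF against 0.766, 16.9, and 28.0 in SAG, COR, and GP. SAG was thus the lowest library for *Tbx2* as it was for *Ccnd1*. *Trp53*, which encodes p53, was at 84.5 FPKM in PF against 82.0, 57.5, and 62.9 in SAG, COR, and GP, and *Myc* at 22.7, 28.2, 51.9, and 42.0. Of 12 p53 target genes besides *Cdkn1a*, 6 were past 3-fold in some pair, in both directions, where 24.7% of all expressed genes were. With 12 genes, this count cannot be read as above that share. *Gadd45a*, a growth arrest gene, was at 0.957 FPKM in PF against 91.2, 11.6, and 21.0 in SAG, COR, and GP, lowest in PF as *Cdkn1a* was. *Btg2*, an antiproliferative gene, was at 30.8 FPKM in PF against 299, 13.3, and 26.9 in SAG, COR, and GP. *Phlda3*, an inhibitor of AKT, was at 21.2 FPKM in SAG and 82.3 to 113 elsewhere, and *Trp53inp1*, a p53-inducible regulator, at 17.1 FPKM in SAG and 1.97 to 7.60 elsewhere. The p53 targets as a list had 5 of 12 genes lowest and 5 of 12 highest in PF, against 35.8% and 35.2% of all expressed genes. Their median log2 ratios of PF to SAG, COR, and GP were 0.10, 0.11, and -0.21, and after the GC correction -0.20, -0.28, and -0.16, so that the sign against SAG and COR turned.

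The genes closest in pattern were sought for the 2 members of widest range, by Euclidean distance between mean-centred log2(FPKM + 1) values over the 4 libraries, among 9801 genes at 5 FPKM or more in at least 1 library. Nearest to *Ccnd1* were *S100a6*, a calcium-binding protein gene, at a distance of 0.20, *Wnt5b*, a non-canonical Wnt ligand gene, at 0.38, and *Olfml2b* at 0.41. *S100a6* was at 240 FPKM in PF against 77.1, 533, and 658 in SAG, COR, and GP, and *Wnt5b* at 14.9, 3.25, 41.5, and 29.8. Both were lowest in SAG and next lowest in PF. Nearest to *Cdkn1a* were *Cbr2*, a carbonyl reductase gene, at 0.14, *Stard4*, a sterol transfer gene, at 0.18, and *Mis18a*, a centromere gene, at 0.19. *Cbr2* was at 0.131 FPKM in PF against 3.67, 3.28, and 5.26 in SAG, COR, and GP, and *Stard4* at 0.511, 4.58, 4.57, and 5.44. Both reached 5 FPKM in GP alone, and at levels this low the pseudocount of 1 sets much of their distance to *Cdkn1a*. *Mis18a* was at 2.59 FPKM in PF against 16.9, 14.1, and 17.7 in SAG, COR, and GP. With 4 libraries, such likeness describes only the order and spacing of 4 values.

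The ratios of PF were compared across settings. The 3-fold ratios of *Cdkn1a* held throughout, those of *Cdkn2c* against SAG lay between -2.24 and -1.69, and those of *Ccnd3* were lowest after the GC correction. For *Cdkn1b* and *Rb1* the sign against SAG and COR depended on the setting.

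**Figure D4:**
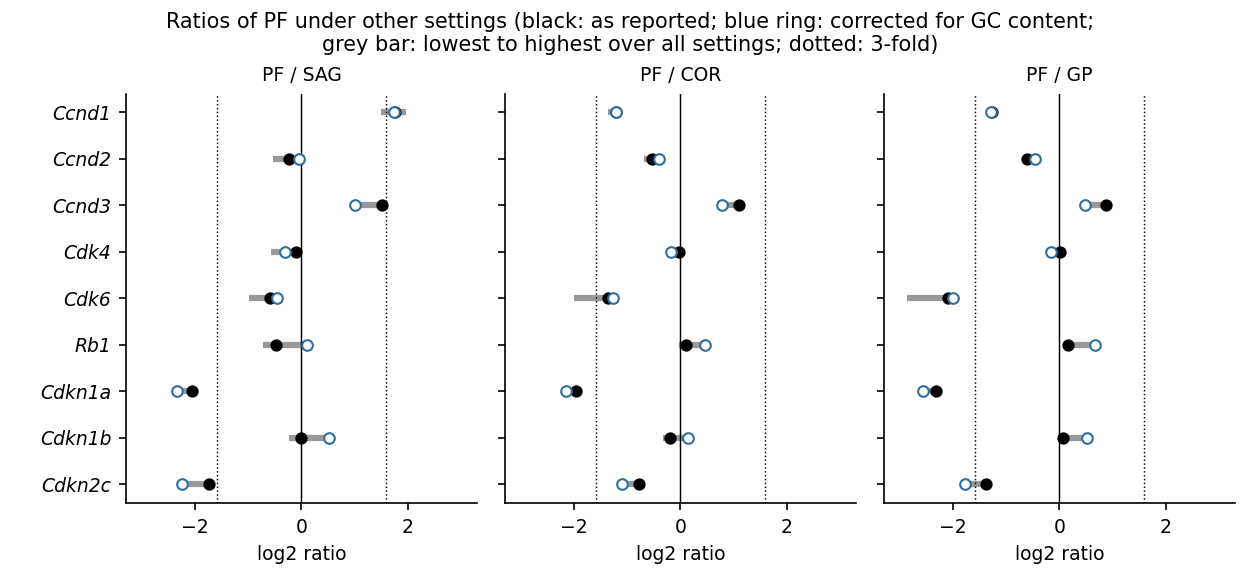
Log2 ratio of PF to SAG, COR, and GP (horizontal axis) for the 9 genes that reached 1 FPKM, as reported (black), after the GC correction (blue ring), and from the lowest to the highest of all settings (grey bar), with 3-fold as dotted lines. *Cdkn1a* stays left of the 3-fold line in each panel, *Ccnd3* moves toward 0 with the GC correction, and the bars of *Cdkn1b* and *Rb1* cross 0 against SAG and COR.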

How the data were processed

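CD51+;CD200+ cells were double sorted from the 3 sutures and the growth plate at postnatal day 3. The authors mapped paired-end reads to mm9 with STAR 2.5.1b and ran Cuffdiff of Cufflinks 2.2.1 with a gene model of the Illumina iGenomes collection. They deposited FPKM for each symbol and library, and the library scaling inside Cuffdiff and the use of strand are not given in the sources used here. FPKM with no counts allows no counting interval. The GENCODE annotation of mm9 gave positions, lengths, and GC content, with a coding transcript for 80.8% of symbols and all 10 members.

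Ratios used a pseudocount of 1 and a floor of 1 FPKM. Alternatives were a pseudocount of 0.1, a 2-fold threshold, 3 scalings, 3 filters, and, added after the data were seen, a loess correction for GC content (span 0.3, genes at 5 FPKM or more). The members and lists were chosen with earlier results of these data known. Beyond the members and the remaining Cip/Kip and Ink4 genes, the rule named up to 4 genes per list, by widest range, among those past 3-fold and at 5 FPKM or more. *Mcm5*, *Trp53*, *Myc*, *Sparc*, *Col1a1*, single markers of cell types, and the overlapping genes were named after their values were seen. How reliable the call of 3-fold ratios is near that threshold, or near the floor of 1 FPKM, was not tested. Tables were handled with pandas 2.3.3 and numpy 2.4.6 in Python 3.11.15, the loess came from statsmodels 0.14.6, rank correlations from scipy 1.17.1, and figures from matplotlib 3.10.9.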

Additional observations from a re-analysis of the deposited data

How the results depend on the processing

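No paired analysis was possible because there is 1 library per tissue, and for the same reason no library could be left out. Counts of the 10 genes past 3-fold changed by more than 1.5 times as follows. With a pseudocount of 0.1, *Cdk6* joined, giving 2 genes for PF vs COR and 2 for SAG vs GP. At 2-fold there were 4 genes for PF vs COR, 4 for PF vs GP, and 2 for SAG vs GP. With quantile normalization there were 2 for SAG vs GP, and with 1 FPKM in both libraries 1 for PF vs GP. No other count changed by more than 1.5 times, and that for COR vs GP was 0 in every setting. Quantile normalization moved the share of *Ccnd3* in the D-type cyclins to 81.4% in PF and 61.7% in SAG. Of 60 ratios of the 10 genes, 52 kept their sign in every setting, and none of those past 3-fold changed sign. The other 8 were small ratios of *Ccnd1*, *Cdk4*, *Rb1*, *Cdkn1b*, and *Cdkn2a*. That of *Cdkn2a*, PF vs COR, had no sign as deposited, with both libraries listed at 0, and left 0 only after the GC correction. Scaling to the same total FPKM moved the median ratio of all genes by -0.26 and -0.15 for PF to SAG and COR, and by 0.12 and 0.18 for SAG to COR and GP. The cause of the changes was not tested. The PF library, shallower by estimate, limits ratios of *Cdk6*, *Cdkn2b*, and *Cdkn2d* most.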
